A study of Mus musculus with 24 samples.

Results

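The 37 genes described here carry out cell proliferation: they license and copy DNA, supply nucleotides, drive entry into mitosis and separate the chromosomes. They were chosen by name as genes of the cell cycle, with no limit on their values but with earlier results of these data known, and all 37 were found among the 37991 genes of the count table and passed the filter on low counts, which kept 20035 genes. RNA was measured by sequencing of polyA RNA from subcutaneous inguinal fat of 24 female mice aged 26 weeks. The mice came from the laboratory strains C57BL/6J and NZO/HiLtJ, the second prone to obesity, and the wild-derived strains CAST/EiJ and WSB/EiJ, and the labels name no engineered allele in any group. From 4 weeks of age, 3 mice of each strain ate a control diet with 17% of its energy as fat (standard diet), and 3 ate a diet with 45% of its energy as fat and 34% sucrose by weight (high-fat diet). That gives 8 groups of 3 mice, numbered 1 to 3 only to name the library. The labels used here do not tell libraries apart by sequencing lane, so effects of lane or run could not be examined.

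Adult white fat holds lipid-filled adipocytes, which rarely divide, together with progenitors, endothelial cells and immune cells, which can. The genes of the set are expressed in cycles. E2F factors open the S phase genes such as the Mcm helicase subunits, and the MuvB complex with Myb or Foxm1 opens the mitotic genes through promoter elements called the CHR (cell cycle genes homology region), often beside CCAAT boxes bound by NF-Y. In obese fat, macrophages gather and some of them divide in place. Inguinal fat of female mice also surrounds the mammary gland, whose ductal epithelium expresses Epcam, an adhesion protein of epithelial cells. In such bulk samples, more cells of a type and more RNA per cell cannot be told apart.

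Promoters are shown first because they carry the elements by which the set is known to be co-expressed. RefSeq promoters (assembly GRCm38.p6, 250 bases before to 50 after the start) were matched for 31 of the 37 members. Of these, 16 (51.6%) held the CHR core TTTGAA on either strand, against 20.2% of the 27025 genes with such promoters. A gene with more than 1 promoter window was counted once, as matched if any of its windows matched. CCAAT, on either strand, was in 25 (80.6%), against 41.1% of all these genes. An E2F match (TTTCCCGC, TTTCGCGC, TTTGCCGC or TTTGGCGC on either strand, matches that can overlap) was in 5 (16.1%), against 2.6%. The CHR core was in promoters of 14 of 21 cyclin, kinase, checkpoint, chromosome and spindle genes (66.7%) and of 2 of 10 replication and nucleotide genes (20%). E2F matches were in those of 1 of 21 (4.76%) and 4 of 10 (40%). These are matches of letters, not shown binding sites.

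The 150 bases before the start are printed for each promoter, 5′ to 3′ on the gene's strand, with CHR, CCAAT and E2F matches on either strand in capitals. Top2a, Mki67, Cdk1 and Mcm5 have further matches in their windows outside this stretch. Top2a (chr11:99024190-99024339, minus strand), Cdk1 (chr10:69352913-69353062, minus), Kif11 (chr19:37376232-37376381, plus), Cdc20 (chr4:118437344-118437493, minus) and Mki67 (chr7:135716380-135716529, minus) stand for the mitotic members, and each holds both a CHR core and a CCAAT box. Cdk1 is the only one of them with an E2F match. Mcm5 (chr8:75109359-75109508, plus) and Mcm6 (chr1:128359706-128359855, minus) hold E2F matches and CCAAT boxes; in Mcm5 a second E2F match begins before the printed stretch. Pcna (chr2:132253181-132253330, minus) held a CCAAT box and no match to the other letters in its window.
Top2a: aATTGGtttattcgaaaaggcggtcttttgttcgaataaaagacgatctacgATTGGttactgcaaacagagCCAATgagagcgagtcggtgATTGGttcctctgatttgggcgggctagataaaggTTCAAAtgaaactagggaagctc
Cdk1: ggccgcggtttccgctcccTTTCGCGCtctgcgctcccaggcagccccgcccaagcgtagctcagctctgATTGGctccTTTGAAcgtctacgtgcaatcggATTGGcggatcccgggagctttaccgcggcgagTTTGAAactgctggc
Kif11: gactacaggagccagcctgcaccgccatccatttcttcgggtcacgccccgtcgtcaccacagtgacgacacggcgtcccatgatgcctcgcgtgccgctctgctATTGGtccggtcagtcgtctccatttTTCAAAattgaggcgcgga
Cdc20: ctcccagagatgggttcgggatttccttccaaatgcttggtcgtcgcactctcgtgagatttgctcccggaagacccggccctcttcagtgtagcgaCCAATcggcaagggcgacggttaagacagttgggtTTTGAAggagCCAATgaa
Mki67: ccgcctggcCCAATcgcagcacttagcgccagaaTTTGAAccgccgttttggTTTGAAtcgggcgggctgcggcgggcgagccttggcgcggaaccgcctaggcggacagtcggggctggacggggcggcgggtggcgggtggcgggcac
Mcm5: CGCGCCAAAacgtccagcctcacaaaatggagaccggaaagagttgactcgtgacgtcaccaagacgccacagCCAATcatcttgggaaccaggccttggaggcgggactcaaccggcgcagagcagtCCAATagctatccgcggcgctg
Mcm6: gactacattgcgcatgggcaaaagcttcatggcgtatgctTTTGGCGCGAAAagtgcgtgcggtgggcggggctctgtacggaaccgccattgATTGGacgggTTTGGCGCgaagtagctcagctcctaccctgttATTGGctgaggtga
Pcna: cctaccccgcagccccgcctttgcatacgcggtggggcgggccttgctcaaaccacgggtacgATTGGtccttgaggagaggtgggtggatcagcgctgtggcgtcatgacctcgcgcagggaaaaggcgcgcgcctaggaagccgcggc

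The libraries held from about 47651600 to about 84009000 counts. Levels are given as normalised CPM, counts scaled to library size with edgeR's TMM factors, and are compared within a gene only. Adipoq, which defines adipocytes, was between 599 and 2750 in 23 libraries and 4.09 in CAST/EiJ high-fat mouse 1, where 6 smooth muscle markers summed to 10370 and 12 epithelial markers to 1461. That library thus lacks the defining transcript of its labelled tissue, and the calls of diet and slope in CAST/EiJ are given with and without it. Other libraries carried transcripts of tissues beside fat. Brain markers summed to 2200 in WSB/EiJ high-fat mouse 2 and to 26.2 to 72.0 elsewhere, skeletal muscle markers to 4133 in CAST/EiJ standard mouse 2, and urothelial markers to 983 in WSB/EiJ high-fat mouse 3. Reproductive tract markers summed to 992 in CAST/EiJ high-fat mouse 1. In WSB/EiJ they summed to 595, 370 and 215 on the high-fat diet against 126 to 212 on the standard diet. Epcam reached 5 CPM in 6 libraries, called Epcam-rich from here on: C57BL/6J high-fat mouse 1, CAST/EiJ high-fat mouse 1, WSB/EiJ standard mouse 3 and all 3 WSB/EiJ high-fat mice.

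Most members moved together from library to library. As a description, each member's log2 ratio to its own median over the 24 libraries was taken, and the median over the 37 members was given to each library. It was lowest in CAST/EiJ on the standard diet (-0.93, -0.69 and -0.82) and highest in WSB/EiJ high-fat mouse 2 (2.08), the library with the most brain transcripts. The other WSB/EiJ high-fat mice were at 0.88 and 0.03, and the 3 on the standard diet at -0.75, -0.52 and -0.49. NZO/HiLtJ mice stood at 0.53, 0.27 and 0.24 on the standard diet against 1.17, 1.26 and 0.76 on the high-fat diet, above every C57BL/6J standard-diet mouse (-0.28, -0.50 and -0.14). C57BL/6J high-fat mice were at 0.13, 0.58 and -0.12, and CAST/EiJ high-fat mice at 0.24, -0.66 and -0.24. In each of the 4 strains, every high-fat library lay above every standard-diet library of that strain. The single highest library was WSB/EiJ high-fat mouse 2 for 30 of 37 members, and the lowest was a CAST/EiJ standard-diet mouse for 21.

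**Figure D1:**
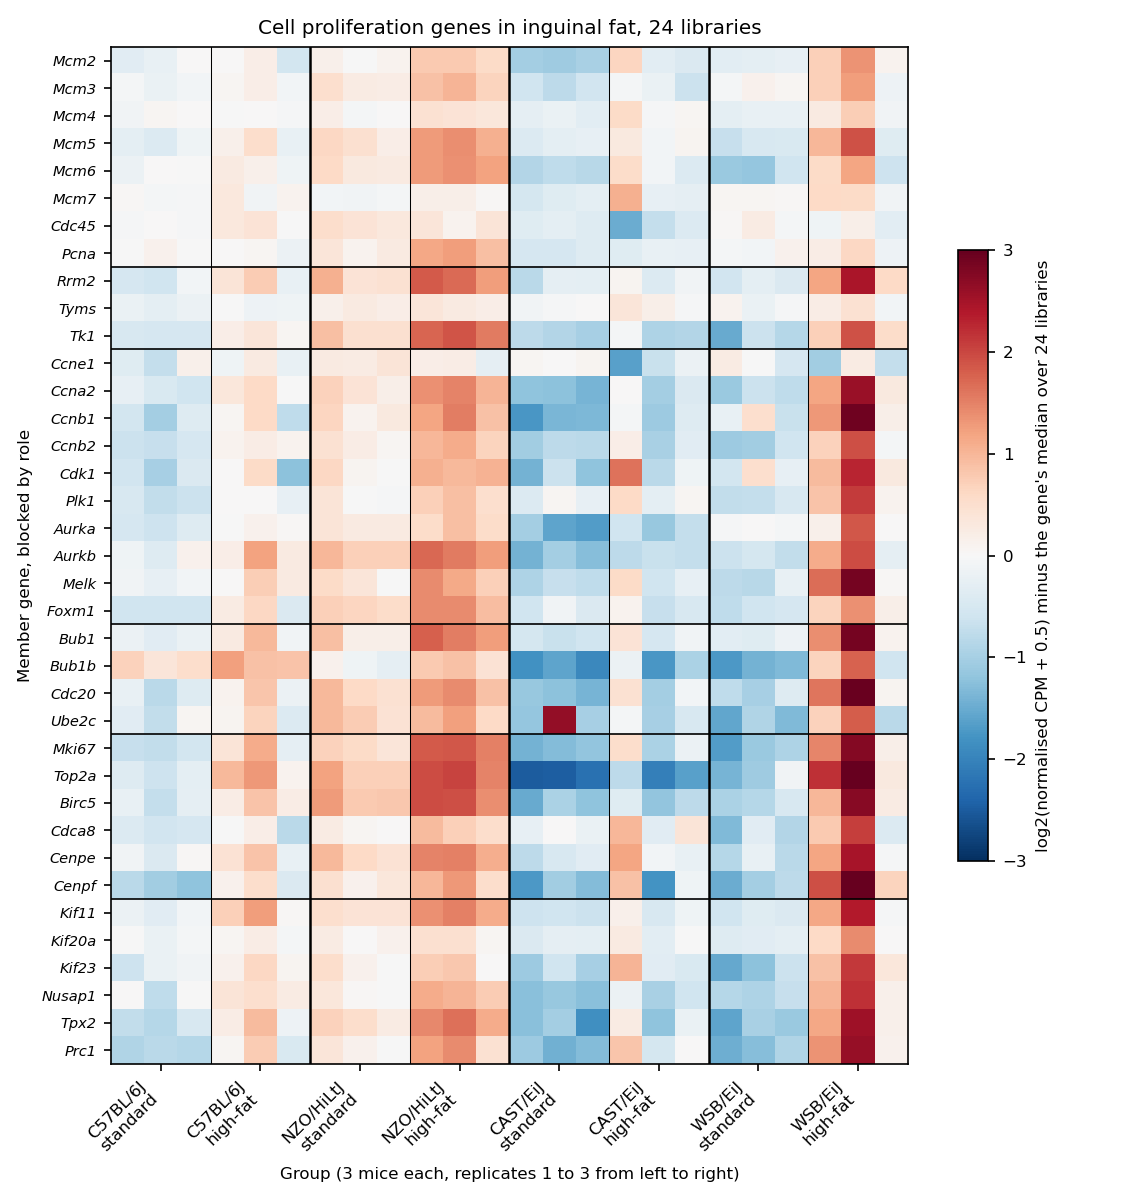
Each member gene (row, blocked by role from licensing at the top to spindle at the bottom) in each of 24 libraries (columns, 3 mice per group), as log2(normalised CPM + 0.5) minus the gene's own median. NZO/HiLtJ high-fat mice and WSB/EiJ high-fat mice 1 and 2 are high (red) over most rows, CAST/EiJ standard-diet mice are low (blue), and Ube2c in CAST/EiJ standard mouse 2, Ccne1 and Cdc45 depart from the block.

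The first question was whether the high-fat diet changed these genes. WSB/EiJ had 29 of 37 members higher on the high-fat diet (adjusted p under 0.05, edgeR's quasi-likelihood test over all 20035 genes), none lower, against 12.9% of tested genes called higher. The median log2 difference of the members was 2.50, and that of all genes 0.074. In NZO/HiLtJ 1 member passed, against 2.95% of all genes, and in CAST/EiJ 1 passed, against 3.27%; both shares are near the background. The members' median differences were 0.84 and 0.92, and 13 and 24 members had an unadjusted p under 0.05. Here and below, counts at an unadjusted p stand without the share of all genes at that cut. Most members moved together, so such counts are a description only. In C57BL/6J none passed with edgeR or with DESeq2, with 0.00998% of all genes called higher; 12 members had an unadjusted p under 0.05 with edgeR and 15 with DESeq2, and the median difference was 0.80. Averaged over strains, 34 members rose, with a median of 1.25, against 17.1% of all genes. The smallest adjusted p-values of that average were those of Mki67 (1.81 ± 0.25 SE, adjusted p = 0.000708), Prc1 (1.66, 0.000829), Tk1 (1.23, 0.000829) and Ccna2 (1.41, 0.000955), with Top2a at 1.85 ± 0.30 (0.00137). Ccne1, Cdc45 and Ube2c were the 3 that did not pass.

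Whether the diet difference itself varied by strain was tested with an interaction term. No member passed with edgeR (3.08% of all genes did), 21 had an unadjusted p under 0.05, and the smallest adjusted p was 0.0512, for Pcna; those of Mki67 and Top2a were 0.163 and 0.182. DESeq2 called 9 members, and the number of all genes it called is not given here. The edgeR count of members was 1 to 2 without any one of CAST/EiJ high-fat mice 2 and 3 and WSB/EiJ high-fat mice 1 and 2. It was 9 without CAST/EiJ high-fat mouse 1 and 15 without WSB/EiJ high-fat mouse 3. All genes called in fits that left out 1 library numbered from 129 to 3588. The larger number of calls in WSB/EiJ is thus not shown by the interaction test to be a difference between strains.

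**Figure D2:**
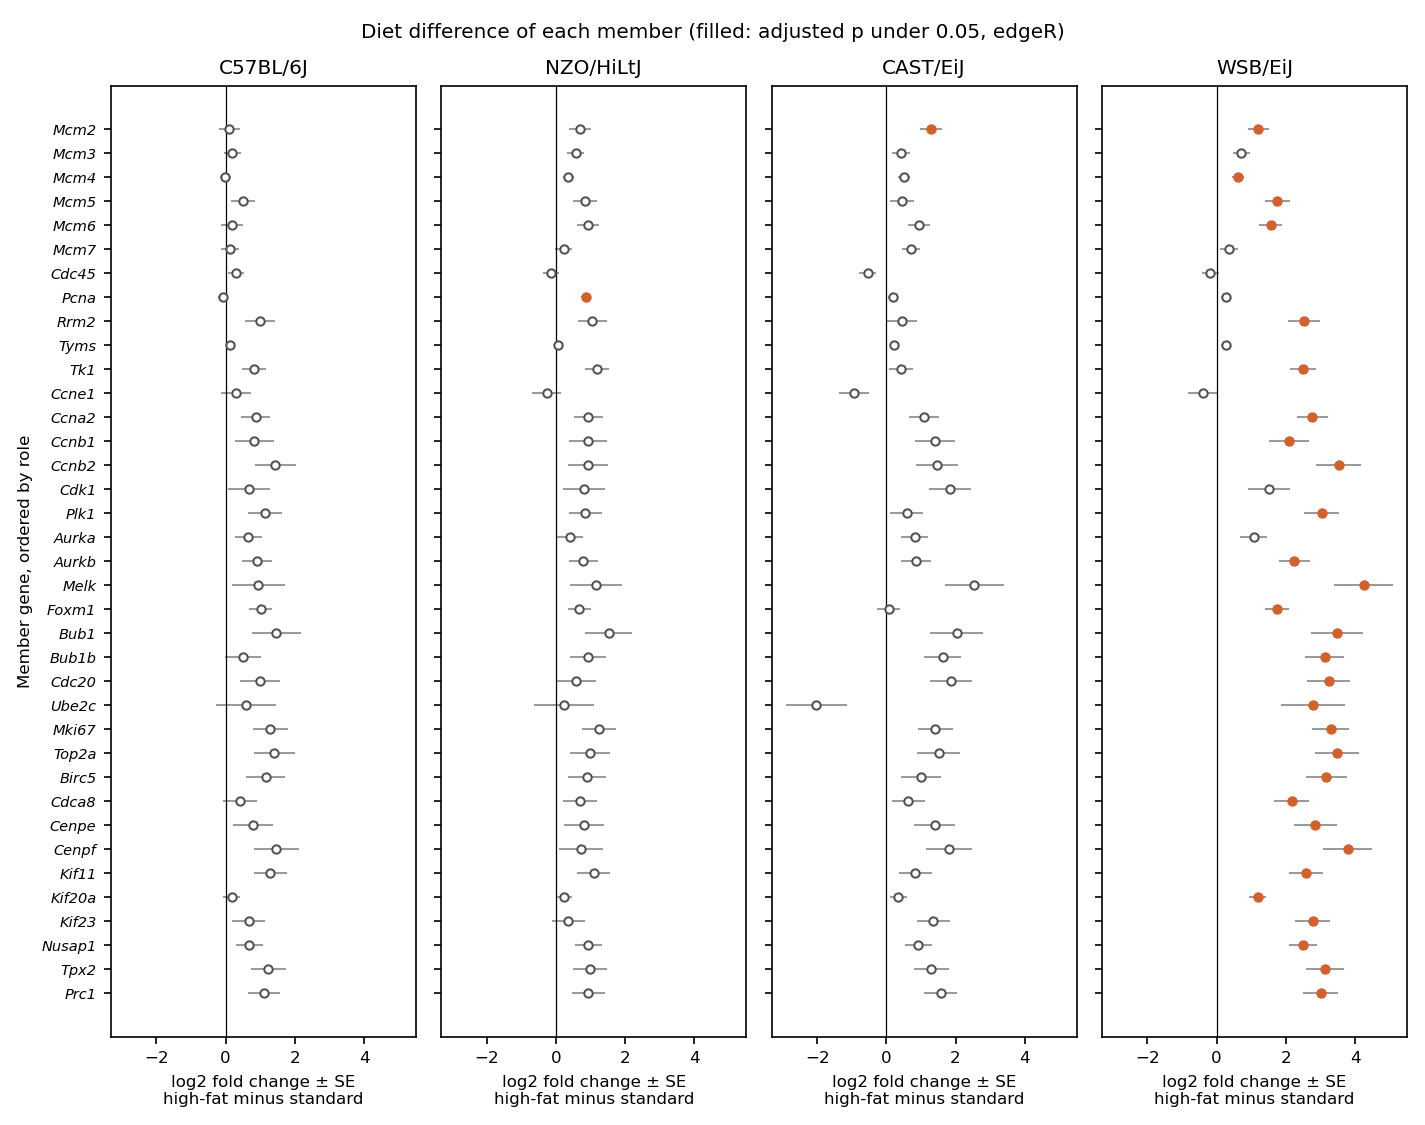
Log2 fold change (high-fat minus standard diet) with its standard error for each member in each strain; filled points have an adjusted p under 0.05 (edgeR). WSB/EiJ has 29 filled points with a median of 2.50, and the other strains have 1 (NZO/HiLtJ, Pcna), 1 (CAST/EiJ, Mcm2) and 0 (C57BL/6J), with medians of 0.80 to 0.92.

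By separation alone, the 3 high-fat libraries lay above the 3 standard-diet libraries for 21 members in C57BL/6J (5.27% of all genes tested did so), 30 in NZO/HiLtJ (22.7%), 19 in CAST/EiJ (10.4%) and 26 in WSB/EiJ (18.4%). In all 4 strains this held for 9 members: Mki67, Top2a, Ccna2, Aurkb, Melk, Bub1, Kif11, Nusap1 and Prc1. Ccne1 and Cdc45 did so in no strain. The remaining members did so in 1 to 3 strains. How many of all tested genes were separated in all 4 strains was not counted, so the 9 members are a description only.

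The licensing and replication members load and run the replicative helicase (Mcm2 to Mcm7, with Cdc45) and clamp the polymerase to DNA (Pcna). On average they moved less than the mitotic members: in WSB/EiJ 4 of 8 rose, with a median difference of 0.67. Mcm6 was 5.72, 5.49 and 8.34 CPM in WSB/EiJ on the standard diet against 19.5, 29.9 and 8.28 on the high-fat diet. The third high-fat mouse thus lay within the standard range. In NZO/HiLtJ Mcm6 was 19.7, 15.9 and 15.6 against 31.9, 34.3 and 30.3, with no overlap, though its diet difference there missed the threshold (0.92, adjusted p = 0.123, edgeR). Mcm2, the member that passed in CAST/EiJ, was 1.65, 1.59 and 1.72 on the standard diet against 6.40, 3.03 and 2.74 on the high-fat diet (log2 difference 1.30 ± 0.32 SE, adjusted p = 0.0387, edgeR). Without the highest of these libraries, the one lacking Adipoq, the difference was 0.79 and the adjusted p 0.195.

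Pcna was 69.9, 58.7 and 65.4 CPM in NZO/HiLtJ on the standard diet against 123, 131 and 102 on the high-fat diet, the highest 3 libraries of the 24. This was the only member to pass the diet test in NZO/HiLtJ (0.87 ± 0.14 SE, adjusted p = 0.00156, edgeR), and in WSB/EiJ, where most mitotic members rose, it did not pass (63.7, 84.7 and 49 against 52.6, 51.7 and 59.2; 0.27 ± 0.14, adjusted p = 0.173). The difference between strains in its diet response did not pass (interaction adjusted p = 0.0512). Pcna has named pseudogenes, and the count of its copy Pcna-ps2 was also higher in NZO/HiLtJ on the high-fat diet (12.9, 13.2 and 10.2 CPM against 7.60, 6.14 and 6.35). Whether reads were shared between the copies was not tested. Mcm7 was 64.2 CPM in CAST/EiJ high-fat mouse 1 and 21 to 46.8 in the other 23 libraries. Cdc45, which completes the active helicase, went the other way in that library: it was 1.19 there and 2.37 to 6.23 elsewhere.

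The nucleotide supply members are Rrm2 (the S phase subunit of ribonucleotide reductase), Tk1 (thymidine kinase) and Tyms (thymidylate synthase). Tk1 was 0.837, 1.93 and 1.61 CPM in WSB/EiJ on the standard diet against 5.76, 13.8 and 5.06 on the high-fat diet, and it had the smallest adjusted p of the set there (2.49 ± 0.37 SE, adjusted p = 0.0015, edgeR). In NZO/HiLtJ it was 6.55, 4.83 and 4.78 against 12.3, 13.6 and 10.8, without overlap, and just missed the threshold (1.18, adjusted p = 0.0646). In C57BL/6J Tk1 was nearly constant on the standard diet (2.22, 2.19 and 2.18) and higher in each high-fat mouse (3.84, 4.38 and 3.43), with an adjusted p of 1. Rrm2 rose in WSB/EiJ (2.52 ± 0.45, adjusted p = 0.00355). Tyms varied least of all members, between 20.1 and 34.5 CPM over the 24 libraries, and its diet difference passed in no single strain.

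Among the cyclins, mitotic kinases and Foxm1, 7 of 10 rose in WSB/EiJ. Ccna2 (cyclin A2, of S phase and early mitosis) was 1.52, 2.25 and 2.05 CPM on the standard diet there and 9.37, 25.6 and 4.78 on the high-fat diet (2.77 ± 0.45 SE, adjusted p = 0.00232, edgeR). Melk, a kinase of dividing cells, had the largest difference of the set (4.25 ± 0.85, adjusted p = 0.00535), from 0.0872, 0.0688 and 0.371 to 2.75, 7.01 and 0.543. Both groups stayed apart for Ccna2 and Melk, with mouse 2 far above the other high-fat mice. Foxm1, the transcription factor of the G2 and M phase genes, was 1.44 CPM in each C57BL/6J mouse on the standard diet against 2.97, 4.05 and 1.69 on the high-fat diet. Ccne1 (cyclin E1, which acts before S phase) was the exception of the group: its diet difference was below zero in NZO/HiLtJ, CAST/EiJ and WSB/EiJ and passed in none. Its mean over strains was -0.32, with an adjusted p of 0.248. In CAST/EiJ Ccne1 was 3.19, 3.11 and 3.30 CPM on the standard diet against 0.660, 1.76 and 2.65 on the high-fat diet, lowest in the library lacking Adipoq. Cdk1, Aurka and Ccne1 were the members of this group that did not pass in WSB/EiJ.

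The checkpoint members Bub1 and Bub1b delay anaphase until chromosomes are attached, and Cdc20 and Ube2c then start the destruction of cyclin B and securin. All 4 rose in WSB/EiJ. Bub1b was 0.436, 0.654 and 0.715 CPM there on the standard diet against 4.40, 9.91 and 1.52 on the high-fat diet (3.13 ± 0.56 SE, adjusted p = 0.00354, edgeR). It was 4.45, 3.44 and 3.94 in C57BL/6J on the standard diet, above all 3 NZO/HiLtJ standard-diet mice (2.87, 2.29 and 2.04), where the median member was higher in NZO/HiLtJ by 0.99. The difference between those 2 groups did not pass (-0.72, adjusted p = 0.485). Ube2c was 17.3 CPM in CAST/EiJ standard mouse 2 and 0.471 to 9.60 elsewhere. Its exons overlap those of the muscle gene Tnnc2 on the other strand by 592 bases (GENCODE M21), and Tnnc2 was 75.1 CPM in that library and at most 1.70 in the other 23. Whether the counting used strand is not given in the sources used here, so Ube2c cannot be told apart from Tnnc2 in that library.

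Among the chromosome and kinetochore members, the highest library exceeded the lowest by 14.2-fold (Cdca8) to 125-fold (Top2a). Mki67, whose protein coats mitotic chromosomes and serves as the Ki-67 stain, averaged 3.32 ± 0.25 CPM (SD, n = 3) in C57BL/6J on the standard diet against 8.15 ± 4.06 on the high-fat diet (7.41, 12.5 and 4.51). It was 8.34 ± 1.04 and 19.8 ± 2.69 in NZO/HiLtJ, and 1.96 ± 0.19 and 5.21 ± 2.82 in CAST/EiJ (8.20, 2.60 and 4.83 on the high-fat diet). In WSB/EiJ it was 2.12 ± 0.67 (1.38, 2.29 and 2.68) and 20.8 ± 17.4 (16.0, 40.2 and 6.34). Within each strain no standard-diet mouse reached the level of a high-fat mouse, and the spread was wider on the high-fat diet in all 4 strains. The order of the standard-diet means was NZO/HiLtJ, C57BL/6J, WSB/EiJ and CAST/EiJ, of which the last 2 overlapped. The diet difference of Mki67 was 1.29 ± 0.50 SE in C57BL/6J (adjusted p = 1), 1.25 ± 0.50 in NZO/HiLtJ (0.201), 1.41 ± 0.50 in CAST/EiJ (0.0876) and 3.30 ± 0.54 in WSB/EiJ (0.00238), by edgeR.

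Top2a, the topoisomerase that untangles sister chromatids, was 1.76, 2.34 and 4.97 CPM in WSB/EiJ on the standard diet against 26.5, 68.7 and 6.76 on the high-fat diet (3.49 ± 0.63 SE, adjusted p = 0.00364, edgeR). In NZO/HiLtJ it was 13.2, 9.18 and 9.30 against 22.6, 23.8 and 16.1 (0.98 ± 0.58, adjusted p = 0.459). In C57BL/6J the difference was 1.41 ± 0.58 (adjusted p = 1). In CAST/EiJ Top2a was 0.550, 0.562 and 0.747 against 2.95, 0.939 and 1.40 (1.51 ± 0.61, adjusted p = 0.12), so that even the high-fat mice lay below every mouse of NZO/HiLtJ and C57BL/6J. Birc5 (survivin) and Cdca8 (borealin) of the chromosomal passenger complex and the kinetochore proteins Cenpe and Cenpf also rose in WSB/EiJ, by 2.17 (Cdca8) to 3.79 (Cenpf).

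The spindle and cytokinesis members are the motors Kif11, Kif20a and Kif23 and the microtubule binders Nusap1, Tpx2 and Prc1. All 6 rose in WSB/EiJ. Prc1, which bundles the central spindle, was 4.64, 5.37 and 7.04 CPM there on the standard diet against 35.4, 86.7 and 15 on the high-fat diet. Nusap1 had the smallest adjusted p of the 6 (2.50 ± 0.40 SE, adjusted p = 0.00232, edgeR). Kif20a ranged only from 8.08 to 30.6 CPM over all libraries, and its exons overlap the opposite-strand gene Cdc23 by 1271 bases, which itself was at 38.0 to 56. Exons of Prc1 and Ccna2 also overlap another gene (Rccd1 by 911 bases and Exosc9 by 510), and in all 11 members have such an overlap.

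Limits of the WSB/EiJ diet result concern the libraries that make it up. Leaving out 1 library at a time gave 23 to 34 members called, 24 without mouse 2 of the high-fat group, where Mki67 still differed by 2.38. In an alternative chosen after seeing the data, with Cd68 and Epcam as covariates, 3 passed and the members' median was 1.65. Beside the members, 5 of 11 epithelial markers (among them Krt7 by 4.02 and Krt8 by 4.50), 6 of 6 brain markers and 2 of 3 urothelial markers rose in WSB/EiJ, and 1 of 12 macrophage markers (Gpnmb, 2.08). Of the fibroblast, plasma cell and germinal centre lists 1 marker each rose, and 1 endothelial marker fell. Adipocyte sums went from 23122 to 30586 CPM on the standard diet down to 9022 to 13694 on the high-fat diet. None of 8 markers passed or had an unadjusted p under 0.05 (edgeR). Adipoq was 2425, 2750 and 1885 against 1241, 828 and 1113, without overlap (-1.15 ± 0.91 SE). Its test uses a spread shared by all groups, which includes CAST/EiJ high-fat mouse 1 at 4.09. The missed threshold thus does not show an unchanged level. Fibroblast sums went from 2665 to 3346 up to 4013 to 5017. Epithelial sums were 35.2, 35.4 and 74.2 CPM on the standard diet against 324, 575 and 1348 on the high-fat diet, and smooth muscle sums were 97.9 to 882 and 1081 to 5531. The part of these transcripts in the result was not tested.

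In NZO/HiLtJ the count of 1 became 2 without WSB/EiJ standard mouse 1, 3 without CAST/EiJ high-fat mouse 1 or WSB/EiJ high-fat mouse 2, and 4 without WSB/EiJ high-fat mouse 3. It became 20 when the 6 Epcam-rich libraries were left out, with a median of 0.83; all genes called then numbered 4112. Beside it, 8 of 12 macrophage markers rose, Cd68, Adgre1 (2.03), Msr1 (2.53) and Itgax (3.42) with the smallest adjusted p, and the macrophage sum went from 885 to 1315 CPM on the standard diet to 3365 to 4763 on the high-fat diet. None of 11 epithelial markers passed or had an unadjusted p under 0.05 (edgeR), and their sums were 10.7 to 23.7 and 11.1 to 18.9. The NZO/HiLtJ and C57BL/6J high-fat mice with the highest members, mouse 2 in each, also had the highest erythroid sums of their groups (1905 and 1442). All 6 liver markers fell with the high-fat diet in NZO/HiLtJ (Alb by 5.39). The part of the macrophage, erythroid and liver transcripts was not tested.

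In CAST/EiJ the members called were 0 without CAST/EiJ high-fat mouse 1 (edgeR; 3 had an unadjusted p under 0.05, and the median difference was 0.60) and in 14 other leave-one-out fits, 7 without WSB/EiJ high-fat mouse 3, 9 without WSB/EiJ high-fat mouse 2, 11 without CAST/EiJ high-fat mouse 3 and 15 without CAST/EiJ high-fat mouse 2. All genes called in the fits that left out 1 library numbered from 4 to 4778. With DESeq2 11 members passed, and the number of all genes it called is not given here. The epithelial sum was 29.7 to 46.1 CPM on the standard diet against 1461, 67.5 and 73.4 on the high-fat diet, and 3 of 11 epithelial markers rose, none of them without CAST/EiJ high-fat mouse 1 (edgeR; 2 had an unadjusted p under 0.05); no macrophage marker passed (edgeR; 3 of 12 had an unadjusted p under 0.05).

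Other genes of the cell cycle were read from lists that do not contain the members. In WSB/EiJ 46 of 54 further mitosis genes rose and none fell, led by Hmmr, a spindle assembly protein (3.72 ± 0.55 SE, adjusted p = 0.0015, edgeR), Kif14 (3.43), Ect2 (2.84) and Ckap2l (3.77). Of 38 further replication and repair genes 20 rose, such as Uhrf1 (2.90) and Lig1 (1.5), and 1 fell (Gins4, by 0.72). Of 18 G1 and E2F genes 3 rose (Ccnd1 1.56, E2f7 1.07, E2f8 3.00) and 1 fell (Cdk6, -1.02), and of 17 cell cycle inhibitors 1 rose (Wee1, 0.92). Over all genes 12.9% were called higher and 8.61% lower in WSB/EiJ. The G1, E2F and inhibitor shares were thus near or below the background.

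In NZO/HiLtJ none of the 54 mitosis genes passed with edgeR (6 had an unadjusted p under 0.05; DESeq2 was not read for these lists); the 2 most abundant, Smc4 and Pttg1, differed by 0.41 and 0.60. In the same mice 2 of 38 replication genes rose (Dnmt1 0.71, Cdt1 1.16), and 2 of 18 G1 genes rose: Cdk6, a cyclin D kinase (1.73 ± 0.28 SE, adjusted p = 0.00143, edgeR), and Ccnd1 (1.12). Over all genes 2.95% were called higher in NZO/HiLtJ. Cdk6 thus rose in NZO/HiLtJ and fell in WSB/EiJ. In CAST/EiJ 4 mitosis genes rose (Ckap2, Iqgap3, Cep55 and Smc2), 1 replication gene (Gins3), 1 G1 gene (Mycn) and 3 inhibitors (Btg2 1.72, Cdkn1a 2.16, Cdkn2a 3.30). Over all genes 3.27% were called higher there, so 1 of 38 replication genes and 1 of 18 G1 genes are near the background. Without CAST/EiJ high-fat mouse 1, which lacks Adipoq, none of these 4 lists had a gene that passed with edgeR, in fits added after seeing the data; 6, 3, 4 and 8 genes had an unadjusted p under 0.05. Ckap2 then differed by 1.57, Mycn by 0.73, Btg2 by 0.70, Cdkn1a by 1.75 and Cdkn2a by 1.34. Cdkn2a was 2.79 CPM in that mouse and 0.176 and 0.410 in the other high-fat mice, against 0.177, 0.165 and 0 on the standard diet. In C57BL/6J none of the 4 lists had a gene that passed with edgeR, and an unadjusted p under 0.05 was reached by 15 mitosis and 2 replication genes; Smc4 differed by 0.22 and Lig1 by 0.37 there.

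The second question was how strains differed on the same diet. All these comparisons share the C57BL/6J group of that diet. Whether reads of the 4 strains aligned equally well to each gene was not tested. In fits that left out 1 library, all genes called also moved. They numbered 772 to 3305 (NZO/HiLtJ), 4137 to 8071 (CAST/EiJ) and 2902 to 6888 (WSB/EiJ) on the standard diet. For the high-fat diet the ranges were 1745 to 5484, 3764 to 6320 and 1598 to 6501. Member counts of such fits are to be read beside these ranges. On the standard diet NZO/HiLtJ had 3 members higher than C57BL/6J: Foxm1 (1.51 ± 0.34 SE, adjusted p = 0.00913, edgeR), Tk1 (1.29, 0.0302) and Tyms (0.44, 0.0314), against 4.28% of all genes called higher. Foxm1 was 4.36, 4.12 and 3.84 CPM in NZO/HiLtJ against 1.44 in each C57BL/6J mouse. Mki67 (1.33, 0.116) and Top2a (1.44, 0.15) did not pass, though their libraries did not overlap. The count was 1 without any single library of these 2 groups, 7 without CAST/EiJ high-fat mouse 1 and 10 without WSB/EiJ high-fat mouse 2 or 3, and 24 without the 6 Epcam-rich libraries. Cd68 was also higher in NZO/HiLtJ (0.92 ± 0.17, adjusted p = 0.00181).

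CAST/EiJ had 7 members lower than C57BL/6J on the standard diet, against 15.3% of all genes called lower: Bub1b (-3.28 ± 0.57 SE, adjusted p = 0.000282, edgeR), Top2a (-2.65 ± 0.63, 0.00387), Aurkb (-1.72, 0.00721), Pcna (-0.50, 0.014), Nusap1, Mcm2 and Aurka. The share of members called was near that of all genes. Mki67 (-0.76, 0.28) did not pass. Bub1b was 0.373, 0.529 and 0.308 CPM in CAST/EiJ, and every C57BL/6J mouse was at 3.44 or more. Cd68 was lower as well (-1.52 ± 0.17, adjusted p = 2.03e-06). The count was 4 without C57BL/6J standard mouse 3, 11 without CAST/EiJ high-fat mouse 1, 13 without WSB/EiJ high-fat mouse 2 or 3, and 20 without the 6 Epcam-rich libraries, of which 1 was higher.

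WSB/EiJ had 2 members lower than C57BL/6J on the standard diet, Bub1b (-2.71 ± 0.55 SE, adjusted p = 0.00193, edgeR) and Mcm6 (-0.93, 0.0441), against 11.9% of all genes called lower. The share of members called was below that of all genes. Counts of Bub1b were thus lower than in C57BL/6J in both wild-derived strains on this diet. Mki67 (-0.65, 0.397) and Top2a (-0.36, 0.713) did not pass. The count fell to 1 in 17 of 24 fits that left out 1 library, and was 7 without the 6 Epcam-rich libraries.

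On the high-fat diet NZO/HiLtJ had 8 members higher than C57BL/6J, against 7.92% of all genes: Pcna (1.16 ± 0.14 SE, adjusted p = 2.48e-05, edgeR), Tk1 (1.66, 0.00393), Mcm6 (1.2, 0.015), Foxm1 (1.18, 0.0233), Mcm3, Mcm5, Rrm2 and Tyms. Of these 8, 7 are replication or nucleotide genes and Foxm1 is the exception. Mki67 (1.28, 0.0923) and Top2a (1.01, 0.262) did not pass, though their differences were near those of Pcna and Mcm6 in size. The calls thus do not show a difference limited to replication and nucleotide genes. The count was 2 without C57BL/6J high-fat mouse 3 or NZO/HiLtJ high-fat mouse 2, 3 without C57BL/6J or NZO/HiLtJ high-fat mouse 1, 15 without WSB/EiJ high-fat mouse 2 or 3, and 22 without the 6 Epcam-rich libraries.

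CAST/EiJ had 6 members lower than C57BL/6J on the high-fat diet, against 13.8% of all genes called lower: Cdc45 (-1.21 ± 0.24 SE, adjusted p = 0.00126, edgeR), Top2a (-2.54, 0.00469), Aurkb (-1.77), Bub1b (-2.16), Birc5 and Nusap1. This share of members was near that of all genes. Mki67 (-0.64, 0.36) did not pass. Without CAST/EiJ high-fat mouse 1 the count was 8, with Cdc45 among them. The count was 10 without WSB/EiJ high-fat mouse 2 and 17 without the 6 Epcam-rich libraries. WSB/EiJ had 10 higher, against 8.81%: Plk1, the polo kinase of mitotic entry (1.85 ± 0.49, adjusted p = 0.0146), Ccnb1 (1.96, 0.0244), Cenpf (2.26, 0.0245), Ccna2 (1.42, 0.0274), Rrm2, Prc1, Cdc20, Mcm2, Tk1 and Kif20a. Top2a (1.71, 0.0501) and Mki67 (1.36, 0.0671) lay just outside the threshold. The WSB/EiJ count was 0 without C57BL/6J high-fat mouse 3 or WSB/EiJ high-fat mouse 2, 1 without C57BL/6J high-fat mouse 1, 4 without C57BL/6J high-fat mouse 2, 23 without CAST/EiJ high-fat mouse 1 and 31 without WSB/EiJ high-fat mouse 3.

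The third question was whether the members follow macrophage or epithelial transcripts in each strain. Cd68 is a lysosomal protein of macrophages. It was 39.8, 39.7 and 41.4 CPM in C57BL/6J on the standard diet against 38.6, 63.4 and 41.5 on the high-fat diet, and 79.8, 65.8 and 82.5 against 267, 344 and 233 in NZO/HiLtJ. In CAST/EiJ it was 12.2, 16.0 and 13.9 against 18.8, 20.7 and 18.6, and in WSB/EiJ 23.2, 20.9 and 24.4 against 24.7, 24.4 and 21.3. The diet difference of Cd68 passed in NZO/HiLtJ (1.89 ± 0.17 SE, adjusted p = 6.69e-06, edgeR) and not in C57BL/6J (0.25, 1), CAST/EiJ (0.46, 0.0899) or WSB/EiJ (0.04, 0.884), and differed between strains (interaction adjusted p = 0.00181). WSB/EiJ, where most members rose with diet, is thus the strain in which Cd68 moved least.

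Epcam was 0.297, 0.408 and 0.450 CPM in C57BL/6J on the standard diet against 10.6, 0.0913 and 0.501 on the high-fat diet. In NZO/HiLtJ it was 0.162, 0.371 and 0.236 against 0.0410, 0.0268 and 0.0979, the last 3 being 3, 2 and 7 counts. In CAST/EiJ it was 1.10, 2.86 and 0.860 against 151, 0.979 and 1.42, and in WSB/EiJ 0.349, 0.258 and 6.06 against 30.7, 51.7 and 11.6. Its diet difference passed in no strain, including WSB/EiJ (3.81 ± 1.67 SE, adjusted p = 0.106, edgeR), where the groups did not overlap. The members and Epcam had the same order among the WSB/EiJ high-fat mice: mouse 2 highest, then mouse 1, then mouse 3. The sum of all 12 epithelial markers had another order, 575, 324 and 1348 CPM in mice 2, 1 and 3, highest where the members were lowest.

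**Figure D3:**
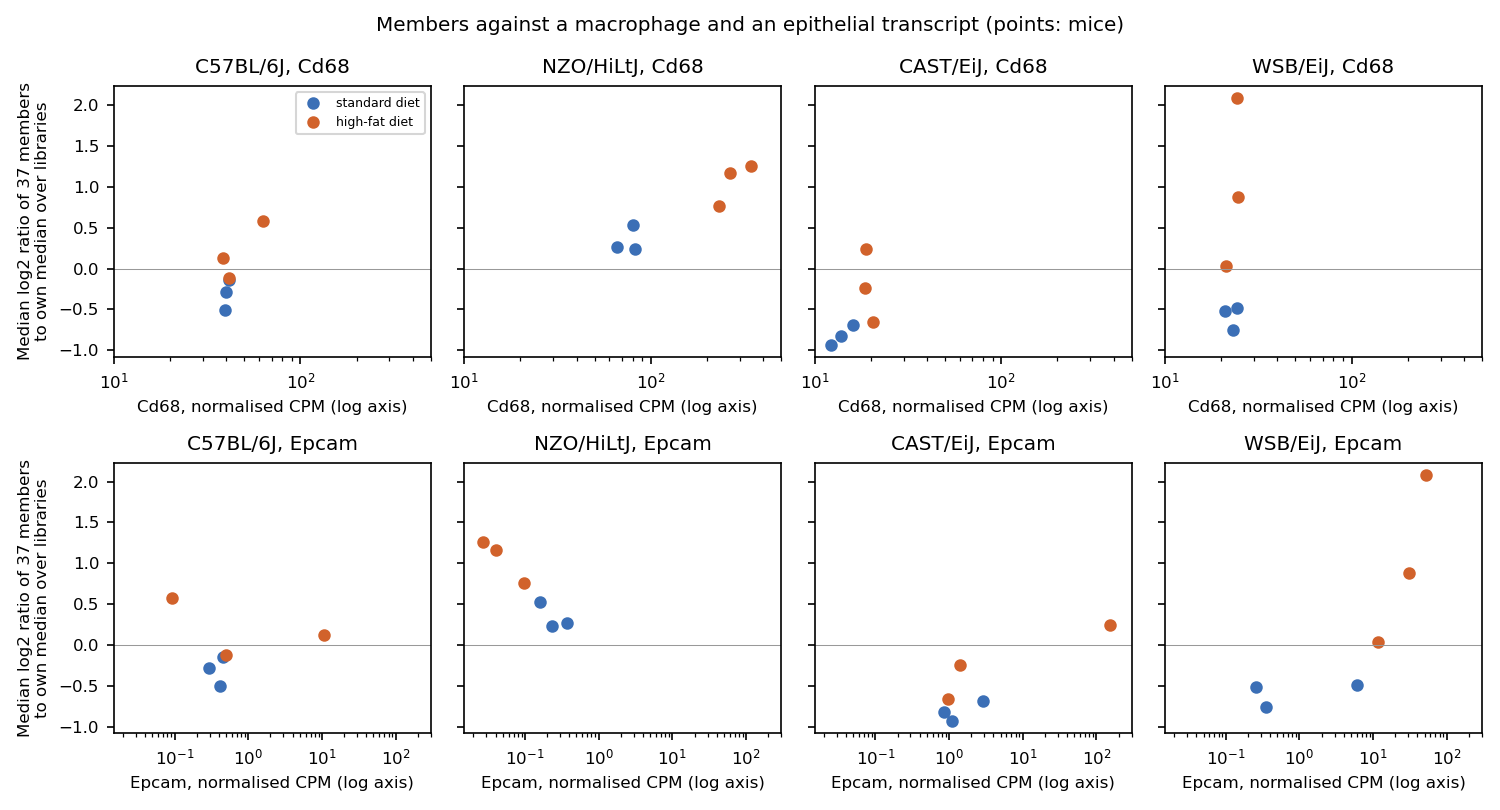
Median log2 ratio of the 37 members in each mouse against Cd68 (top row) and Epcam (bottom row) in normalised CPM on a log axis, 1 panel per strain. In NZO/HiLtJ the high-fat mice are high in both Cd68 (233 to 344) and members; in WSB/EiJ Cd68 stays between 20.9 and 24.7 while the members span -0.75 to 2.08, and members climb with Epcam from 0.258 to 51.7.

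For each gene a slope was fitted per strain, as the log2 difference per doubling of the marker, over the 6 mice of the strain and without a diet term. On Cd68, 1 member passed in NZO/HiLtJ, Pcna (0.47 ± 0.06 SE, adjusted p = 0.00016, edgeR), against 2.39% of all genes with a positive slope called; 3 had an unadjusted p under 0.05. The members' median slope there was 0.44, and Mki67 (0.65 ± 0.40) and Top2a (0.53 ± 0.41) did not pass. Pcna kept its call in each of the 24 fits that left out 1 library. With diet kept as a term no member passed, and Cd68 and diet cannot be told apart in these 6 mice, since every high-fat mouse had more Cd68 than every standard-diet mouse.

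In C57BL/6J and CAST/EiJ no member passed on Cd68, as 0% of all genes did with a positive slope in either; 1 and 5 members had an unadjusted p under 0.05 (edgeR), with medians of 1.25 and 1.64. Mki67 had slopes of 2.11 ± 1.36 SE and 2.35 ± 1.60, and Top2a of 1.71 ± 1.42 and 2.51 ± 1.71. In C57BL/6J the mouse with the highest Cd68 (63.4, high-fat mouse 2) also had the highest Mki67 (12.5) and Top2a (14.0) of its strain; without it the median slope was -2.19. With the summed macrophage list in place of Cd68, 8 members passed in CAST/EiJ, 6 of them lower with more macrophage transcript, with a median slope of -0.61; all genes called then numbered 9843. The macrophage sum there was 268 in the library lacking Adipoq and 644 to 917 in the other 5. Without that library no member passed on the summed list or had an unadjusted p under 0.05 (edgeR), and the median slope was 1.78, of the other sign.

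In WSB/EiJ no member passed on Cd68 (0% of all genes did), 27 had an unadjusted p under 0.05 (edgeR), and the median slope was 7.92, with Mki67 at 10.77 ± 4.15 SE and Top2a at 14.13 ± 4.48. That slope spans a narrow range of Cd68, from 20.9 to 24.7 CPM, and its sign turned with the marker. On the summed macrophage list 32 members were lower with more macrophage transcript (median -6.61; 2606 genes called in all), and with Cd68 and Epcam in one model the median on Cd68 was 0.066. The sums were 452, 524 and 488 on the standard diet against 474, 378 and 455 on the high-fat diet, lowest in mouse 2, where the members were highest.

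On Epcam, 35 of 37 members rose with the marker in WSB/EiJ, against 22.1% of all genes; Ccne1 and Cdc45 did not pass. The leading slopes were Kif23 (0.61 ± 0.08 SE, adjusted p = 3e-05, edgeR), Melk (1.05 ± 0.13, 3.25e-05), Plk1 (0.65 ± 0.09, 4.77e-05) and Ccnb2 (0.83 ± 0.11, 5.34e-05), with Top2a at 0.77 ± 0.11 (7.27e-05) and Mki67 at 0.67 ± 0.12 (0.000256). Kif23, a motor of cytokinesis, was 0.820, 1.14 and 1.94 CPM on the standard diet against 6.51, 16.0 and 4.34 on the high-fat diet. The count was 28 with both markers in one model and 27 with the summed epithelial list, without the number of all genes called. When 1 library was left out it was 27 to 35, and all genes called in either direction numbered 5884 to 8589. With diet kept as a term it was 1, and since every high-fat mouse had more Epcam than every standard-diet mouse, Epcam and diet cannot be told apart in these 6 mice.

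In CAST/EiJ 18 members rose with Epcam (28.4% of all genes did) and 2 fell (25.3% did). Mcm7 led (0.21 ± 0.02 SE, adjusted p = 6.15e-07, edgeR), followed by Kif23 (0.30, 0.000643), Cdk1 (0.41, 0.000945) and Mcm4 (0.11, 0.00127), and Cdc45 (-0.20, 0.00111) and Ccne1 (-0.31, 0.00964) fell. Mki67 (0.25 ± 0.10, 0.0456) and Top2a (0.27 ± 0.10, 0.0249) passed. The relation rests on CAST/EiJ high-fat mouse 1, in which Epcam was 151 and at most 2.86 in the other 5 mice: without it 1 member passed, and Mcm7 had a slope of -0.018.

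In NZO/HiLtJ 2 members fell with Epcam, Pcna (-1.69 ± 0.26 SE, adjusted p = 0.000531, edgeR) and Mcm6 (-1.73 ± 0.49, 0.0349), against 5.04% of all genes; Mki67 (-2.20, 0.211) and Top2a (-2.05, 0.226) did not pass. Epcam was at most 31 counts in these mice, and Cd68 also fell with it (-3.43 ± 0.47, adjusted p = 0.000231). No member passed with both markers in one model, with diet as a term or with the summed epithelial list, and 1 passed without any one of NZO/HiLtJ standard mice 2 and 3 and the 3 high-fat mice, against 4 without WSB/EiJ high-fat mouse 2. In C57BL/6J no member passed on Epcam and none had an unadjusted p under 0.05 (edgeR), against 2.1% of all genes called higher. Mki67 had a slope of 0.03 ± 0.17 and Top2a of 0.13 ± 0.16. C57BL/6J high-fat mouse 1, with Epcam at 10.6, had Mki67 at 7.41, below high-fat mouse 2 (12.5), where Epcam was 0.0913.

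Among mice of the same strain and diet, with a term for each group and both markers in one model, no member passed on Cd68 (edgeR; 0.00499% of all genes did). On Cd68, 17 had an unadjusted p under 0.05, with a median slope of 1.25; Mki67 had 1.39 ± 0.63 SE and Top2a 1.74 ± 0.68. On Epcam 19 members rose, against 23.7% of all genes: Mcm7 (0.16 ± 0.03, adjusted p = 0.000234), Kif23 (0.25 ± 0.05, 0.00134), Mcm6 (0.17 ± 0.04, 0.00342) and Mcm2 (0.16 ± 0.04, 0.00424), with Top2a at 0.28 (0.00898) and Mki67 at 0.19 (0.0408). Without CAST/EiJ high-fat mouse 1 none passed. With the summed epithelial list in place of Epcam none passed either (1 had an unadjusted p under 0.05).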

How the data were processed

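Values were the expected counts per gene that the authors deposited for the 24 libraries; the submitters' processing notes name RSEM 1.2.1, Bowtie 0.12.8 and CASAVA 1.8.0 and the builds NCBIM37 and mm9, without saying which step used which. The deposited estimated counts are whole numbers in the file, so rounding them changed nothing; an upper-quartile table was not used. Strand use in counting is not given in the sources used here. The members and all gene lists were chosen with earlier results of these data known. Symbols were found for 32919 of 37991 IDs (86.6%). Counts were scaled by TMM and filtered by group (filterByExpr, 17956 genes removed), and quasi-likelihood F tests were run in edgeR 4.0.16 (R 4.3.3) over 8 groups (16 residual degrees of freedom), with Benjamini-Hochberg adjustment over all 20035 genes and a threshold of 0.05. Standard errors are the size of the log2 difference divided by the square root of F. Slopes used log2(normalised CPM + 0.5) of Cd68 or Epcam centred within strain (16 residual degrees of freedom), or both with group terms (14). Any member could be named; of those that passed, up to 4 in each direction with the smallest adjusted p were given in each comparison, with Mki67 and Top2a throughout, and of every other list up to 4 genes per direction by the same order, or the 2 most abundant where none passed. Alternatives were RLE scaling, no filter, DESeq2 1.42.0, other marker measures and libraries left out. The biological coefficient of variation was 40.1%. Replicates of each group differed by more than sampling noise (chi-square per degree of freedom 23.3 to 1578). The edgeR steps were tested on simulated data.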

Additional observations from a re-analysis of the deposited data

How the results depend on the processing

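Alternatives that moved a count of members called by over 1.5 times were as follows; the cause was not tested. With RLE scaling the interaction called 1 and WSB/EiJ minus C57BL/6J on the standard diet 1. With no filter the CAST/EiJ diet count was 0 and WSB/EiJ minus C57BL/6J on the standard diet 1. DESeq2 called 2 for diet in NZO/HiLtJ, 11 in CAST/EiJ, 9 for the interaction, 6 for NZO/HiLtJ minus C57BL/6J on the standard diet and 23 for WSB/EiJ minus C57BL/6J on the high-fat diet. With the 6 Epcam-rich libraries left out, counts were 20 (diet in NZO/HiLtJ), 2 (diet in CAST/EiJ), 2 (interaction), 24, 20 and 7 (NZO/HiLtJ, CAST/EiJ and WSB/EiJ minus C57BL/6J, standard diet), and 22 and 17 (NZO/HiLtJ and CAST/EiJ, high-fat diet). All WSB/EiJ high-fat mice are among those libraries, so their comparisons could not be fitted. Without these libraries the interaction covered only C57BL/6J, NZO/HiLtJ and CAST/EiJ. Its count of 2 thus comes from a different test than the interaction that includes WSB/EiJ, and the counts cannot be compared. Apart from diet in NZO/HiLtJ, the number of all genes called without these libraries is not given here. With Cd68 and Epcam as covariates, chosen after seeing the data, diet counts were 0 in NZO/HiLtJ, 0 in CAST/EiJ, 3 in WSB/EiJ and 0 for the mean. In NZO/HiLtJ both slopes called 0 with both markers in one model and 0 with diet as a term. With diet as a term the Epcam count was 12 in CAST/EiJ and 1 in WSB/EiJ. With summed lists the Cd68 count was 8 in CAST/EiJ and 32 in WSB/EiJ, and the Epcam count 0 in NZO/HiLtJ and 0 within groups.

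Of the other cell cycle lists in CAST/EiJ, 0 mitosis, 0 replication, 0 G1 and 0 inhibitor genes passed for diet without CAST/EiJ high-fat mouse 1, against 4, 1, 1 and 3, in fits chosen after seeing the data. Leaving out 1 library at a time gave, for diet, 0 to 0 (C57BL/6J), 1 to 4 (NZO/HiLtJ), 0 to 15 (CAST/EiJ), 23 to 34 (WSB/EiJ), 32 to 34 (mean) and 0 to 15 (interaction). Against C57BL/6J it gave 1 to 10, 4 to 13 and 1 to 2 on the standard diet and 2 to 15, 4 to 10 and 0 to 31 on the high-fat diet, for NZO/HiLtJ, CAST/EiJ and WSB/EiJ. All genes called for diet in these fits numbered 0 to 21 (C57BL/6J), 272 to 2375 (NZO/HiLtJ), 4 to 4778 (CAST/EiJ) and 639 to 8104 (WSB/EiJ). For the mean they numbered 3651 to 7803, and for the interaction 129 to 3588. Epcam slopes gave 0 to 0 (C57BL/6J), 1 to 4 (NZO/HiLtJ), 1 to 25 (CAST/EiJ), 27 to 35 (WSB/EiJ) and 0 to 23 within groups. All genes called for these slopes numbered 1 to 729, 467 to 2049, 144 to 11354, 5884 to 8589 and 1356 to 9780, in the same order. Cd68 slopes gave 1 to 1 members in NZO/HiLtJ and 0 to 0 otherwise.

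Of the member results that had passed, single members changed sign in 3 settings. Medians of slopes that had not passed also changed sign: on the summed macrophage list that of CAST/EiJ was -0.61 and that of WSB/EiJ -6.61, against 1.64 and 7.92 on Cd68, and with diet as a term that of CAST/EiJ on Cd68 was -0.083. The C57BL/6J median on Cd68 (1.25) was -2.19 without high-fat mouse 2, and that on Epcam (0.040) was -1.32 without high-fat mouse 1, -0.027 with diet as a term and -0.13 on the summed list. Within groups the summed lists gave medians of -0.52 (macrophage) and -0.076 (epithelial), and with both covariates the NZO/HiLtJ diet median was -1.37. With both covariates, the mean diet differences were Foxm1 -0.20, Mcm2 -0.024, Kif20a -0.11, Birc5 -0.019, Cdk1 -0.35, Tyms -0.016, Pcna -0.012, Mcm7 -0.075, Kif23 -0.20, Mcm3 -0.042 and Cenpe -0.034. Epcam slopes in CAST/EiJ, with 1 library left out at a time, ranged over Cdc45 -0.22 to 0.19, Ccne1 -0.35 to 0.14, Mcm2 -0.31 to 0.26, Top2a -0.27 to 0.30, Tyms -0.072 to 0.060, Mcm6 -0.18 to 0.20, Bub1 -0.38 to 0.40, Mcm7 -0.018 to 0.22, Mki67 -0.054 to 0.29, Prc1 -0.32 to 0.28 and Cenpe -0.17 to 0.33; the end with the changed sign, the upper for Cdc45 and Ccne1 and the lower for the others, is without CAST/EiJ high-fat mouse 1. With the summed epithelial list, slopes within groups were Mcm2 -0.086, Mcm4 -0.037, Tyms -0.074, Mcm6 -0.073, Mki67 -0.092, Prc1 -0.12 and Cenpe -0.11. No paired analysis was possible because the labels give no replicate numbers that tie mice across groups. With 3 mice per group and low counts for members such as Melk and Bub1, differences that missed the threshold are not shown to be absent.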
